A study of Homo sapiens with 4 samples.

Results

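The 48 genes described here encode the proteins that license replication origins and copy DNA at the fork. They were chosen by name, from the MCM helicase and the origin recognition complex through the polymerases to the enzymes that supply deoxynucleotides. The rule uses symbols and not expression values, but the choice was made with earlier results of these data known. All 48 were among the 14431 genes listed in the deposited table of CPM values (reads scaled to a common library total), and all 48 passed a filter that kept 14199 genes averaging 1 CPM or more in either group. RNA-Seq was performed on HGC27, an established human gastric cancer cell line, in 4 libraries. The 2 siAARS1 libraries came from cells treated with siRNA against AARS1, the cytosolic alanyl-tRNA synthetase that the study examined as a lactyltransferase. The 2 control libraries came from cells labelled as wild type, and their sample descriptions hold the letters NC. These names do not say whether control cells received a control siRNA. Every library, the controls included, came from cells kept in glucose-free DMEM with serum and 25 mM lactate, which the labels give as lasting 24 h and the study's own text as a shorter time. The 2 groups therefore differed by the siRNA against AARS1 and, if controls received no siRNA, also by siRNA treatment itself. Neither glucose nor the absence of lactate was compared. Only 1 cell line was used, and the labels do not say whether libraries of a group came from separate cultures, so p-values measured the spread between these libraries alone.

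A replication origin is licensed in G1 phase, when the origin recognition complex, CDC6 and CDT1 load the MCM2 to MCM7 ring onto DNA. In S phase the CDC7-DBF4 kinase phosphorylates the ring, and CDC45 and GINS join it to form the active helicase. Polymerases then extend primers on both strands, held by the sliding clamp PCNA, and many of these genes are transcribed under the control of E2F factors as cells enter S phase.

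Between 30653210 and 33522573 reads per library fell in listed genes, and member genes held from 214 to 24353 reads in a library. AARS1, listed as AARS, was measured at 428 and 417 CPM in controls and 292 and 298 CPM in the siAARS1 libraries. This was a fall of 0.52 on the log2 scale (SE 0.0357, limma adjusted p = 2.52e-11), to 0.70 of the control mean. With values corrected for GC content and length, of the transcript or of coding sequence and 3′ UTR, the change was -0.31 and -0.35. AARS1 was called lower under both. Its transcript has 53.5% GC, and all genes from 52.7 to 59.1% GC had a median log2 fold change of -0.24. Of 5 epithelial markers used to check the cell type, KRT18, KRT19 and EPCAM were not among the listed genes, KRT8 averaged 25.0 and 5.84 CPM in control and siAARS1 libraries, and CDH1 averaged 2.22 and 0.867 CPM. The mesenchymal marker VIM averaged 5099 and 4655 CPM and the fibroblast-associated COL1A1 averaged 2359 and 1593 CPM, while COL1A2 averaged 129 and 61.3 CPM and DCN 245 and 264 CPM. The mesenchymal marker CDH2 and the leukocyte and endothelial markers were not listed, apart from CD68, at 0.933 and 0.634 CPM. The part of these markers in the results on replication genes was not tested.

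Of the 48 replication genes, 31 passed the test (limma on log2(CPM + 1), Benjamini-Hochberg adjusted p under 0.05), 27 of them higher and 4 lower in siAARS1 libraries. This was 64.6% of the members, where 70.7 percent of all genes tested passed, with 32.6 percent higher and 38.0 percent lower. Of the members, 56.2% were higher and 8.33% were lower. On the recovered reads edgeR called 36 members (75%), 33 higher and 3 lower, and 9806 of the 14199 genes. DESeq2 called 34 members (70.8%), 32 higher and 2 lower, and 8355 genes. Whether members passed more or less often than all genes thus depended on the method. The 8 members that rose at least 2-fold were RFC1, POLA1, DBF4, MCM8, ORC3, CDC7, ORC4 and MCM10, 16.7% of the list against 10.6 percent of all genes, and 0 members fell at least 2-fold against 1.63 percent of all genes. That count was also 0 by limma at unadjusted p under 0.05 and by edgeR and DESeq2. The remaining 17 members did not pass, among them MCM2, MCM3, MCM5 and MCM7 of the helicase ring and the catalytic polymerase subunits POLD1 and POLE. Values of the 2 groups did not overlap for 44 of the 48 members, a common state in these data since it held for 85.1 percent of all genes. The exceptions were MCM5, CDC45, POLD1 and POLE. In bulk RNA, fewer cells in S phase and less RNA per cell cannot be told apart, and the same holds for a rise.

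The direction of the small changes turned on how libraries were scaled. The median log2 fold change was 0.16 over the members and -0.054 over all genes tested. With the libraries scaled to equal medians these values became -0.065 and -0.26, so the distance between members and all genes, 0.21 as deposited, was 0.20 after scaling. Under that scaling 18 members were higher and 22 lower, against 23.8 percent and 56.3 percent of all genes. The 18 members that were higher under every scaling tried were MCM6, MCM8, MCM10, ORC2, ORC3, ORC4, ORC5, GMNN, CDC7, DBF4, RFC1, RFC3, RFC4, POLA1, PRIM1, POLD3, POLE2 and RRM1. POLD2 and RPA3 were lower under every scaling. The share of all genes that met either condition was not counted. The summed CPM of all 48 genes was 5781 and 5799 in controls and 6575 and 6566 after siAARS1, or 0.588% and 0.591% against 0.662% of the listed CPM in both siAARS1 libraries.

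**Figure D1:**
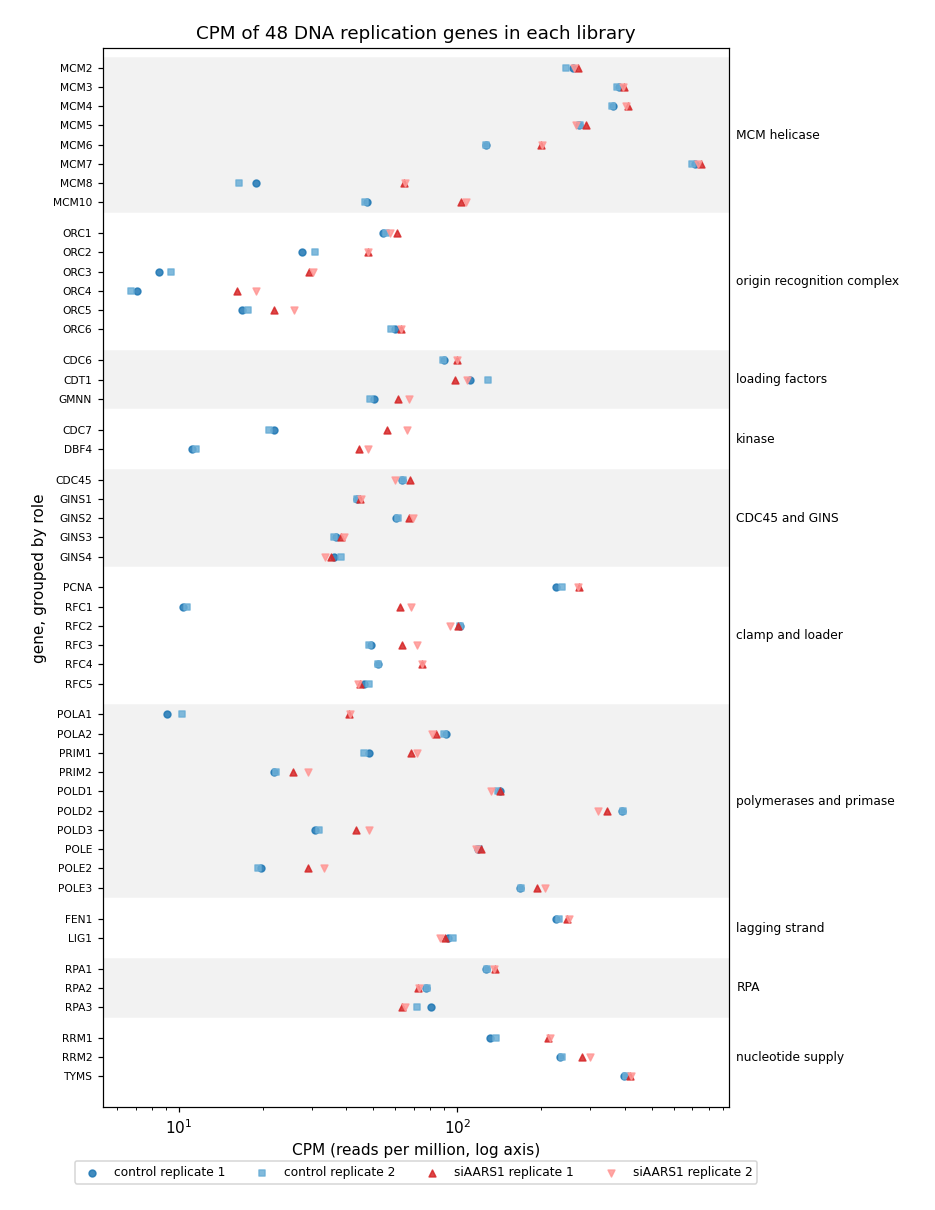
CPM on a log axis of each of the 48 genes, grouped by role, with 1 point per library (blue, 2 control; red, 2 siAARS1). The red points of RFC1, at 62.1 and 68.1 CPM, lie far to the right of its blue points at 10.4 and 10.7 CPM, whereas the 4 points of MCM5 and POLE lie on top of each other.

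Promoters are printed for 6 members to place beside the expression values some forms of the letters through which E2F factors are known to act. MCM2, MCM6 and CDT1 stand for licensing genes that did not pass, rose and fell, and RFC1, POLA1 and MCM10 are 3 of the 8 genes with the largest rises. Each window holds 250 bases before and 30 bases from the transcription start, 5′ to 3′ on the strand of the gene, from RefSeq on GRCh38.p14. Capitals mark E2F letters, searched on both strands as TTTCCCGC, TTTGGCGC, TTTCGCGC and TTTGCCGC. The windows lie at chr3:127598161-127598440 on the plus strand for MCM2, chr2:135876414-135876693 on the minus strand for MCM6 and chr16:88803539-88803818 on the plus strand for CDT1. Those of the second set lie at chr4:39366333-39366612 on the minus strand for RFC1, chrX:24693668-24693947 on the plus strand for POLA1 and chr10:13161308-13161587 on the plus strand for MCM10.
MCM2: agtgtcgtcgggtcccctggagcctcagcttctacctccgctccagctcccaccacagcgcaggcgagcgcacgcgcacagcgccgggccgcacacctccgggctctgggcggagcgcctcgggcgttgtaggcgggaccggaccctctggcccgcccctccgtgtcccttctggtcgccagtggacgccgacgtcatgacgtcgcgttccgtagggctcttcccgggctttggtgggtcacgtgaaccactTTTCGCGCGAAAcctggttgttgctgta
MCM6: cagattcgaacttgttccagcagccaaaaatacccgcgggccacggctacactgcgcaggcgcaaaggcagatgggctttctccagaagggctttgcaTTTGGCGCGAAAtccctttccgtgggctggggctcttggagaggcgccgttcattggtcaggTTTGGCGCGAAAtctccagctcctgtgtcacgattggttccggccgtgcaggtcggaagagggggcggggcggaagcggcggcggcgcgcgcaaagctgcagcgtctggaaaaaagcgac
CDT1: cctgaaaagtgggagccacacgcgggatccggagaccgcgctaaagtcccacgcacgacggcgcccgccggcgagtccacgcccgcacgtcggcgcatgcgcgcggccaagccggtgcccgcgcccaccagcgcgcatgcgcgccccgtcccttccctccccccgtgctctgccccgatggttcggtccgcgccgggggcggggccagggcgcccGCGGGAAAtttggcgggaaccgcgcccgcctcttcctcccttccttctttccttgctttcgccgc
RFC1: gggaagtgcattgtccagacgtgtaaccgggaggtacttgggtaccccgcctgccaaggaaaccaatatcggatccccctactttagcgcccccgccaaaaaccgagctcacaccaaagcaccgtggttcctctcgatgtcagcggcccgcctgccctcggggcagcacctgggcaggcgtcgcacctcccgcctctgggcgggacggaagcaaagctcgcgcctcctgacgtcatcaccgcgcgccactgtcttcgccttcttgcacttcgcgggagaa
POLA1: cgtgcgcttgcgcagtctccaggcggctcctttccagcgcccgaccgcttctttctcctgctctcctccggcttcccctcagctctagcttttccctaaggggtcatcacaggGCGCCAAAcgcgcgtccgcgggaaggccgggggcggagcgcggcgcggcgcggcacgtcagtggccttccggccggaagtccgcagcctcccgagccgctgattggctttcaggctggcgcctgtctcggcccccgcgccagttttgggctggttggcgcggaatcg
MCM10: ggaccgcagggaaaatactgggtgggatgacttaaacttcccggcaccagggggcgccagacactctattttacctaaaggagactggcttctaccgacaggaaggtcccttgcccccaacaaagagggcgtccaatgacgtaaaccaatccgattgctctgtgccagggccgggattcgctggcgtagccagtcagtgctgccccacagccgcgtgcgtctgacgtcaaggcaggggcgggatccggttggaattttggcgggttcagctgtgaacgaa

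In MCM6 the letters began 152 and 90 bases before the start, each time followed by the overlapping match on the other strand. In MCM2 they began 2 bases after the start, in CDT1 35 bases before it and in POLA1 137 bases before it. The windows of RFC1 and MCM10 held none of the searched letters, which says only that these forms were absent from 280 bases. Near matches such as TTTGGCGG, present in the windows of MCM10 and CDT1 and on the other strand in RFC1, were not searched. Windows were found for 42 of the 48 members, and 20 of the 42 (47.6%) held the letters on either strand against 3.82% of 27305 genes. Among members with a window the letters were found for 3 of the 8 that rose at least 2-fold (ORC3, CDC7 and POLA1) and for 17 of the other 34. The CCAAT letters, searched on both strands, were found for 24 of 42 members (57.1%) and 38.7% of all genes, and the letters TTTGAA of the cell cycle homology region for 3 of 42 (DBF4, POLE3 and RRM1) and 17.4% of all genes. A match is a description of the sequence and not evidence of binding.

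In the MCM group, the genes of the helicase ring changed little or moderately, and the 2 members outside the ring rose at least 2-fold. Of these 8 genes 4 rose and 4 did not pass, and 3 of the 4 were higher under every scaling. MCM8, a relative of the ring subunits that acts in recombination, was measured at 18.9 and 16.5 CPM in controls and 64.4 and 64.9 CPM in siAARS1 libraries, a change of 1.82 on the log2 scale (SE 0.0672, adjusted p by limma = 4.79e-16). MCM8 lies at chr20:5950652-5998977 on the plus strand and MCM10 at chr10:13161554-13211104 on the plus strand. MCM10, which helps to activate the loaded helicase, was measured at 47.3 and 46.6 CPM in controls and 103 and 107 CPM in siAARS1 libraries, a change of 1.15 on the log2 scale (SE 0.0482, adjusted p by limma = 4.56e-15). For both genes every siAARS1 library lay above every control library by more than the spread within a group. Within the ring, MCM6 rose from 127 and 127 CPM to 199 and 202 CPM (log2 fold change 0.65, SE 0.0390), the only ring gene higher under every scaling. MCM4 was higher by 0.17 on the log2 scale as deposited and at -0.056 under median scaling. MCM2 was measured at 260.2 and 247 CPM against 272 and 262 CPM, a log2 difference of 0.076 that did not pass (limma adjusted p = 0.0885). MCM5, with the smallest difference of the group, stood at 274 and 276 CPM against 289.6 and 266 CPM, and its groups overlapped. MCM3 and MCM7 differed by 0.067 and 0.069 and did not pass with limma, although edgeR and DESeq2 on the recovered reads called MCM2, MCM3 and MCM7 higher. Under median scaling MCM2, MCM3, MCM5 and MCM7 were called lower by limma, at -0.15, -0.16, -0.22 and -0.16. Per kilobase of transcript, the ring genes spanned a 7.01-fold range in control libraries, from 34.1 CPM per kb for MCM6 to 239 for MCM7, and a 4.67-fold range in siAARS1 libraries, where MCM6 was again lowest at 53.7. Under the GC content and length correction MCM8 stood at 0.87 and MCM10 at 1.15, and MCM2, MCM3, MCM5 and MCM7 passed as higher, at 0.39, 0.25, 0.29 and 0.38. MCM6 was then the lowest ring gene, at 0.19, and again once coding sequence and 3′ UTR were corrected for, at 0.12, and it passed as higher both times. Of the MCM2 exon bases 22.7% lie opposite an antisense transcript, and strand was not stated for the counting.

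The origin recognition complex has 6 subunits that mark the sites where MCM rings are loaded. With limma ORC2, ORC3, ORC4 and ORC5 rose, while ORC1 and ORC6 did not pass. ORC3 was measured at 8.51 and 9.36 CPM in controls and 29.4 and 30.3 CPM in siAARS1 libraries, a change of 1.64 on the log2 scale (SE 0.0833, adjusted p by limma = 1.34e-13). ORC4, the least abundant member per kilobase at 1.03 CPM per kb, was measured at 7.10 and 6.75 CPM against 16.2 and 18.9 CPM, a change of 1.22 on the log2 scale (SE 0.0999). The siAARS1 libraries of both genes lay at more than 2 times the control level with no overlap. ORC2 rose from 27.8 and 30.7 CPM to 48.0 and 47.8 CPM (log2 fold change 0.69, SE 0.0621), and ORC5 rose by 0.45. ORC1, the subunit whose protein is removed after licensing in human cells, was at 54.0 and 55.4 CPM against 60.9 and 57.5 CPM and did not pass with limma (log2 difference 0.11, adjusted p = 0.0626). ORC6 was at 59.9 and 57.9 CPM against 62.6 and 63.0 CPM, with a log2 difference of 0.090. It was called lower under median scaling, at -0.14. On the recovered reads edgeR called ORC1 and ORC6 higher, at 0.15 and 0.13. DESeq2 called ORC1 higher, at 0.17, but not ORC6. After correction for GC content and transcript length ORC3 remained higher at 0.99, whereas ORC4 stood at -0.078 and no longer passed, and ORC2 turned lower at -0.20. Correction for coding sequence and 3′ UTR turned ORC5 lower, at -0.30, and called ORC1 and ORC6 higher, at 0.16 and 0.23. ORC1 was also called higher under the GC content and length correction, at 0.27, and ORC6 was not.

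Among the loading factors, GMNN rose and CDT1 fell, and CDC6 rose as deposited but not under median scaling. CDT1, which brings the MCM ring to the origin, was measured at 111 and 129 CPM in controls and 98.0 and 108 CPM in siAARS1 libraries, a change of -0.22 on the log2 scale (SE 0.0579, adjusted p by limma = 0.0023). The highest siAARS1 library lay just below the lowest control library, and without control replicate 2 the change was -0.11 and did not pass (limma adjusted p = 0.109). Without siAARS1 replicate 1 it was -0.14 and did not pass either (adjusted p = 0.105). DESeq2 on the recovered reads put CDT1 at -0.17 and did not call it (adjusted p = 0.264). GMNN, which encodes geminin, the inhibitor that binds CDT1 outside G1, rose from 50.1 and 48.4 CPM to 61.4 and 67.1 CPM (log2 fold change 0.38, SE 0.0547). CDC6, the ATPase that acts with CDT1, was higher by 0.16 as deposited, but at -0.066 under median scaling. After correction for GC content and length, CDT1 turned higher, at 0.17, and GMNN remained higher, at 0.27. Correction for coding sequence and 3′ UTR turned CDC6 to -0.19, which limma called lower, and left CDT1 higher at 0.16.

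Both subunits of the kinase that fires licensed origins rose. DBF4, the regulatory subunit, was measured at 11.1 and 11.5 CPM in controls and 44.5 and 47.9 CPM in siAARS1 libraries, a change of 1.94 on the log2 scale (SE 0.0726, adjusted p by limma = 6.05e-16). CDC7, the catalytic subunit, was measured at 21.9 and 21.1 CPM against 55.8 and 66.2 CPM, a change of 1.46 on the log2 scale (SE 0.0704, adjusted p by limma = 5.27e-14). The groups were well apart for both genes, and DBF4 lies at chr7:87876216-87909541 on the plus strand. With the GC content and length correction the changes were 1.11 for DBF4 and 0.62 for CDC7, and both still passed. Correction for coding sequence and 3′ UTR left DBF4 at 0.17 and CDC7 at 0.41.

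CDC45 and the GINS subunits, which complete the active helicase, had 1 of 5 genes passing. GINS2 was measured at 60.1 and 61.4 CPM in controls and 67.0 and 69.1 CPM in siAARS1 libraries, a change of 0.16 on the log2 scale (SE 0.0491, adjusted p by limma = 0.00602) that stood at -0.064 under median scaling. Without control replicate 1 GINS2 did not pass (limma adjusted p = 0.0562). GINS1 was at 43.7 and 43.7 CPM against 44.8 and 45.1 CPM, so the values of the 4 libraries differed little. GINS4 was at 36.2 and 38.3 CPM against 35.2 and 33.6 CPM (log2 difference -0.11, limma adjusted p = 0.108), and 21.2% of its exon bases lie opposite a listed antisense gene. CDC45 was at 63.4 and 63.8 CPM against 67.6 and 59.8 CPM, with the control values between those of the siAARS1 libraries. GINS3 differed by 0.088 and did not pass. Under median scaling limma called 4 of the 5 lower, CDC45 at -0.23, GINS1 at -0.18, GINS3 at -0.13 and GINS4 at -0.33. The GC content and length correction turned GINS1 lower, at -0.56, and had CDC45, GINS2 and GINS3 called higher, at 0.20, 0.28 and 0.16. Under the correction for coding sequence and 3′ UTR GINS1 stood at -0.016 and did not pass. CDC45, GINS2 and GINS3 were again called higher there.

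In the clamp and clamp loader group, RFC1 showed the largest change of all 48 genes. RFC1, the large subunit of the loader that opens PCNA, was measured at 10.4 and 10.7 CPM in controls and 62.1 and 68.1 CPM in siAARS1 libraries, a change of 2.52 on the log2 scale (SE 0.0699, adjusted p by limma = 4.07e-18). The gene lies at chr4:39287456-39366375 on the minus strand, and its transcript of 4859 bases has a GC content of 41.6%. Its rise stood at 1.74 once GC content and length were corrected for and at 1.14 once those of coding sequence and 3′ UTR were. The small subunits of the same loader had smaller log2 fold changes. RFC4 rose from 51.9 and 52.1 CPM to 74.7 and 74.9 CPM (log2 fold change 0.52, SE 0.0489). RFC3 rose by 0.47 but turned to -0.19 under the GC content and length correction. It did not pass, at 0.024, under that for coding sequence and 3′ UTR. RFC5 was at 46.2 and 48.1 CPM against 44.7 and 44.1 CPM, and neither RFC5 (log2 difference -0.085) nor RFC2 (-0.072) passed. Both were called lower under median scaling, at -0.31 and -0.30, and RFC2 was called higher under the GC content and length correction, at 0.20. Per kilobase, the 5 loader genes spanned a 27.9-fold range in control libraries, from 2.16 CPM per kb for RFC1 to 60.3 for RFC2, and a 4.28-fold range in siAARS1 libraries, where RFC1 reached 13.4 CPM per kb. PCNA, the clamp itself, was higher by 0.23 as deposited, from means of 232 ± 7.56 to 273 ± 0.747 CPM (SD, n = 2), and by 0.0051 under median scaling. PCNA has 3 named pseudogenes in the annotation, and RFC3 and RFC5 have 1 each, so their reads are less certain.

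Among the 10 polymerase and primase genes 6 rose, 2 fell and 2 did not pass, and under median scaling 4 were higher and 4 lower, with POLA1 up and its partner POLA2 down. The 4 lower ones were POLA2 at -0.35, POLD1 at -0.27, POLD2 at -0.47 and POLE at -0.23. POLA1, the catalytic subunit of polymerase alpha, was measured at 9.03 and 10.3 CPM in controls and 40.9 and 41.2 CPM in siAARS1 libraries, a change of 1.98 on the log2 scale (SE 0.0790, adjusted p by limma = 1.8e-15). POLA2, its accessory subunit, was at 90.9 and 89.9 CPM against 84.2 and 81.5 CPM, a change of -0.12 on the log2 scale (SE 0.0452, adjusted p by limma = 0.0182). Both siAARS1 libraries lay at more than 3 times either control library for POLA1, whereas for POLA2 they were lower by a small margin without overlap. The fall of POLA2 did not pass without control replicate 1 (adjusted p = 0.109), without control replicate 2 (0.0644) or without siAARS1 replicate 2 (0.0896), and was not called by edgeR or DESeq2 on the recovered reads. A readthrough transcript shares 35.1% of the POLA2 exon bases on the same strand. POLA1 lies at chrX:24693919-24996986 on the plus strand and stood at 1.34 and 0.59 under the corrections for base composition, where POLA2 turned to 0.10 and 0.019. The primase subunits that complete the polymerase alpha complex both rose as deposited. PRIM1, the catalytic primase subunit, went from 48.3 and 46.3 CPM to 68.1 and 71.5 CPM (log2 fold change 0.55, SE 0.0521). PRIM2, the large subunit, went from 22.0 and 22.3 CPM to 25.7 and 29.2 CPM (log2 fold change 0.29, SE 0.0741), with 0.074 under median scaling. Correction for coding sequence and 3′ UTR turned PRIM1 to -0.085, which did not pass, and PRIM2 to -0.29, which was called lower. Under the GC content and length correction PRIM1 was called higher, at 0.23, and PRIM2 stood at -0.13 and did not pass.

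In polymerase delta, which copies the lagging strand, POLD2 showed the lowest log2 fold change of the 48 genes, -0.24 (SE 0.0387, limma adjusted p = 8.94e-06), from 391 and 395 CPM in controls to 344 and 319 CPM in siAARS1 libraries. Its fall turned to 0.088 with the GC content and length correction. The catalytic subunit POLD1 averaged 141 ± 2.03 and 137 ± 6.79 CPM (SD, n = 2) and did not pass, and the accessory subunit POLD3 rose by 0.52. In polymerase epsilon, which copies the leading strand, the catalytic subunit POLE was at 119 and 120.2 CPM against 121 and 117 CPM with overlapping groups. Its accessory subunit POLE2 rose from 19.8 and 19.3 CPM to 29.2 and 33.2 CPM (log2 fold change 0.65, SE 0.0743), and the histone-fold subunit POLE3 was higher by 0.25 as deposited and by 0.020 under median scaling. POLD1 and POLE, which did not pass as deposited, were called higher under the GC content and length correction, at 0.34 and 0.29. POLE2 turned to -0.11 and did not pass once coding sequence and 3′ UTR were corrected for, where POLD3 was called higher, at 0.29. Under the GC content and length correction POLE2 was called higher, at 0.33, and POLD3 came to 0.046 and did not pass.

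Of the 5 genes that finish the lagging strand or protect single-stranded DNA, FEN1 and RPA1 rose and RPA3 fell as deposited, and under median scaling limma called all 5 lower. FEN1, the flap endonuclease that trims Okazaki fragments, was measured at 227 and 232 CPM against 248 and 251 CPM, a change of 0.12 on the log2 scale (SE 0.0370, adjusted p by limma = 0.00662) that turned to -0.11 under median scaling and did not pass without control replicate 1 (adjusted p = 0.0801). LIG1, the ligase that seals them, was at 92.4 and 96.7 CPM against 90.6 and 86.7 CPM and did not pass (limma adjusted p = 0.0804). Under the GC content and length correction both FEN1 and LIG1 were called higher, at 0.37 and 0.26, and correction for coding sequence and 3′ UTR put them at 0.41 and 0.23. Of the single-strand binding complex, RPA3 fell from 80.7 and 71.7 CPM to 63.4 and 65.1 CPM (log2 fold change -0.24, SE 0.0543). RPA3 was the only gene of the list that was lower under every scaling and under both corrections for base composition. RPA1, the large subunit, was at 127 and 128 CPM against 137 and 135 CPM, a change of 0.094 on the log2 scale (limma adjusted p = 0.0445) that no longer passed when any 1 of the 4 libraries was left out (adjusted p from 0.0613 to 0.193) and stood at -0.13 under median scaling. RPA2 differed by -0.094 and did not pass, and it has 3 named pseudogenes.

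For deoxynucleotide supply, both subunits of ribonucleotide reductase rose as deposited, RRM1 also under every other scaling. RRM1, the large subunit, was measured at 132 and 138 CPM in controls and 213 and 215 CPM in siAARS1 libraries, a change of 0.66 on the log2 scale (SE 0.0402, adjusted p by limma = 2.93e-12). RRM2, the subunit that rises in S phase, was at 234 and 237 CPM against 281 and 301 CPM, a change of 0.30 on the log2 scale (SE 0.0393), with 20.2% of its exon bases shared with a same-strand transcript and 3 named pseudogenes. RRM1 turned lower, at -0.19, once coding sequence and 3′ UTR were corrected for. Under the GC content and length correction RRM1 was called higher, at 0.25, and RRM2 turned lower, at -0.20. RRM2 was called higher, at 0.22, under the correction for coding sequence and 3′ UTR. TYMS, which makes thymidylate, was at 398 and 405 CPM against 417 and 421 CPM and did not pass with limma (log2 difference 0.061, adjusted p = 0.123). It was called lower under median scaling, at -0.17, and higher under the GC content and length correction, at 0.22. ENOSF1 lies opposite 39.1% of its exon bases.

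**Figure D2:**
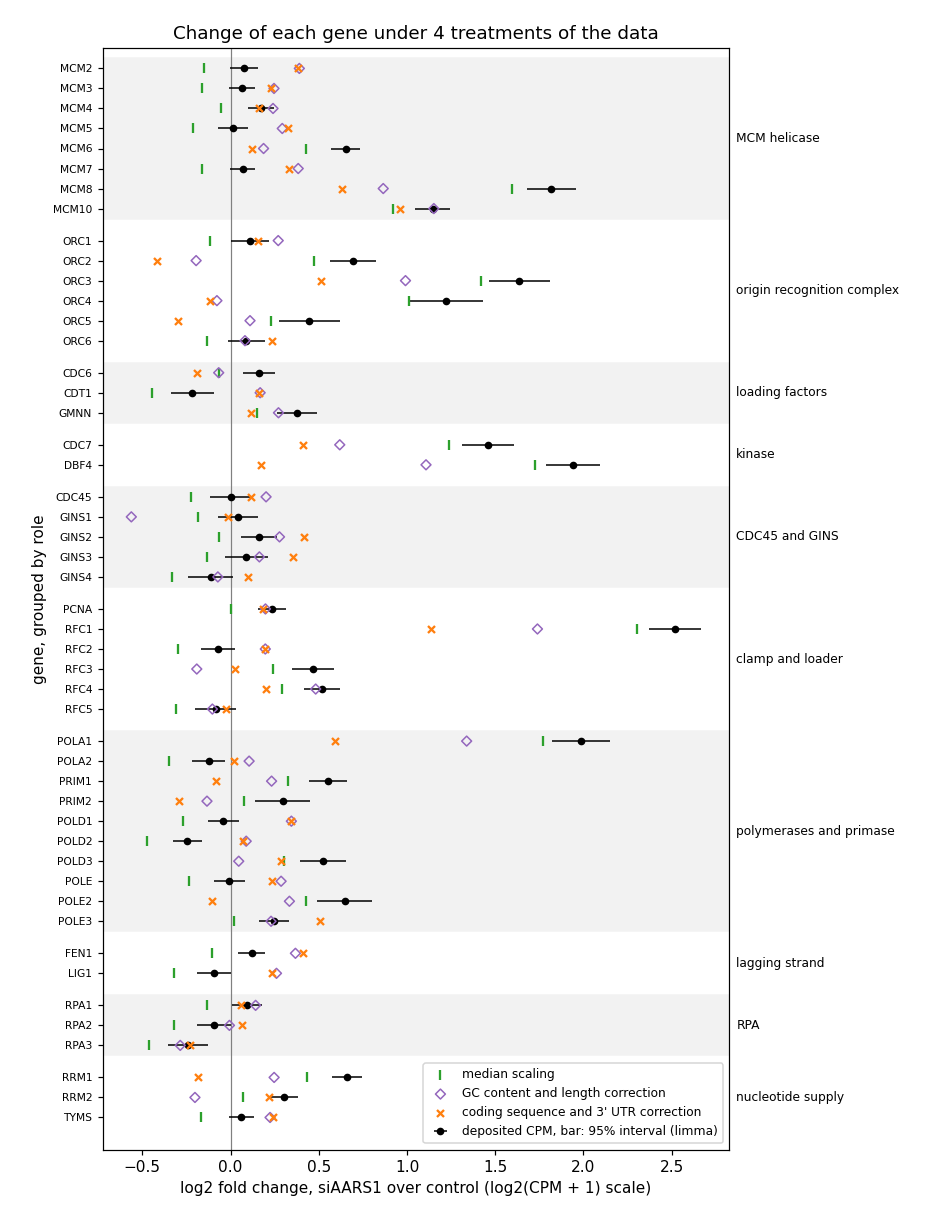
Log2 fold change of each gene (siAARS1 over control) from the deposited CPM with 95% intervals (black), under median scaling (green bars), corrected for GC content and length (purple diamonds) and for coding sequence and 3′ UTR (orange crosses). RFC1 stays to the right of 1 in all of them (2.52, 2.30, 1.74 and 1.14), whereas ORC4 moves from 1.22 to -0.078 and -0.12 with the corrections, and the small rises of MCM4, CDC6, GINS2, FEN1 and RPA1 cross 0 under median scaling.

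The changes moved with the base composition of the transcripts. Across the 48 members Spearman's rho between log2 fold change and transcript GC content was -0.77, and across 13819 genes with a value it was -0.65. With the mean control CPM in place of GC content, rho was -0.57 across the members and -0.15 across the 13819 genes. The genes shared the same 4 libraries and are not independent, so all of these are descriptions. The 8 members that rose at least 2-fold had GC contents of 37.7 to 47.2% (median 40.8) and control levels of 6.92 to 47.0 CPM, and the other 40 had 39.1 to 64.9% (median 48.0) and 17.3 to 707 CPM. In the quintile of all genes with the lowest GC content, up to 41.5%, the median log2 fold change was 0.77 over 2764 genes and 0.96 over the 8 members there. In the next quintiles, upward in GC content, the values were 0.20 and 0.41 (18 members), -0.12 and 0.088 (11 members), -0.24 and 0.0024 (8 members), and -0.30 and -0.092 (3 members). Members thus stood above the median of genes of like GC content in each quintile, with few members in the last. Of all genes in the lowest quintile 39.4% rose at least 2-fold, and so did 4 of the 8 members.

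With each library corrected for its smooth trend on GC content and transcript length, 34 members were higher and 5 lower, against 32.7 percent and 33.3 percent of 13819 genes. Only MCM10, DBF4, RFC1 and POLA1 remained at least 2-fold higher, at 1.15, 1.11, 1.74 and 1.34, where 3.29 percent of all genes did. With a correction on GC content and length of coding sequence and 3′ UTR, 32 members were higher and 6 lower, against 34.2 percent and 31.5 percent of 12185 protein-coding genes, and RFC1 alone remained at least 2-fold higher, against 1.21 percent. MCM6, MCM8, MCM10, ORC3, GMNN, CDC7, DBF4, RFC1, RFC4 and POLA1 were higher under every scaling and under both corrections. How many of all genes did so was not counted, so no contrast with them is drawn. The cause of the relation with GC content was not tested.

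**Figure D3:**
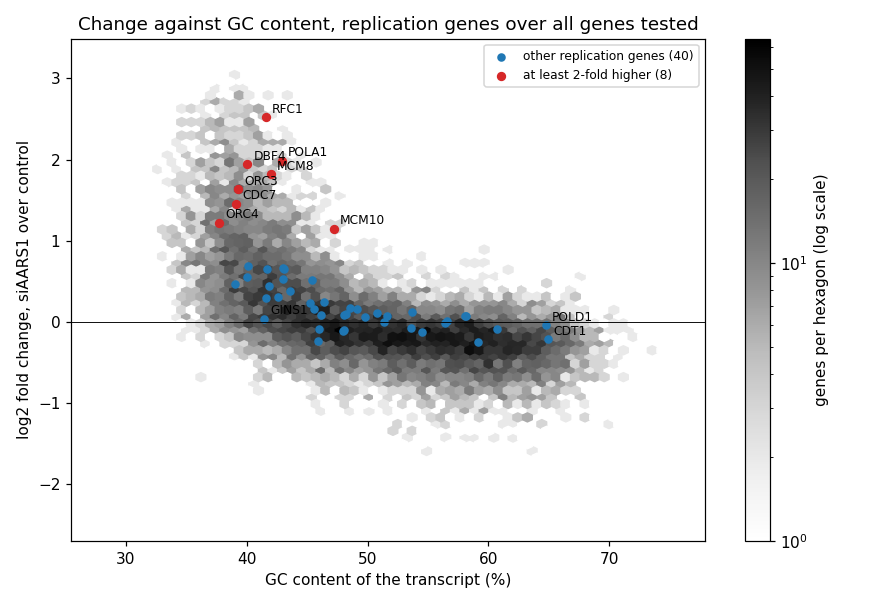
Log2 fold change (siAARS1 over control) against GC content of the transcript in percent, for all genes with a value (grey hexagons, darker for more genes) and the 48 replication genes (points; red for the 8 that rose at least 2-fold). Members follow the downward slope of all genes, with rho of -0.77 and -0.65, and MCM10, at 47.2% GC, lies at the upper edge of the grey cloud.

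Ratios of paired members within a library do not depend on how libraries are scaled, so 10 pairs of subunits or partners were compared. With 2 libraries against 2, the exact permutation test (two-sided) cannot give less than 0.333, which it gave for each of the 10 pairs, and 0.333 after adjustment over them. The ratio of POLA1 to POLA2 was 0.0993 and 0.114 in control libraries and 0.486 and 0.506 in siAARS1 libraries, a log2 difference of 2.22. The ratio of RFC1 to RFC4 was 0.200 and 0.204 against 0.831 and 0.910, a log2 difference of 2.10. The siAARS1 libraries of both ratios lay above the control libraries by far more than replicates differed. The ratio was also higher for MCM10 to MCM2 (0.182 and 0.189 against 0.378 and 0.410) and for DBF4 to CDC7 (0.507 and 0.543 against 0.798 and 0.723). The ratio of CDT1 to its inhibitor GMNN was lower, at 1.60 and 1.62 against 2.22 and 2.67 in control libraries, a log2 difference of -0.60. ORC1 to ORC2 and POLE to POLE2 were also lower, by log2 differences of -0.60 and -0.68, as were RRM2 to RRM1 (-0.36) and PRIM2 to PRIM1 (-0.26). GINS1 to GINS2 had the smallest difference as deposited, -0.12, which became -0.86 and -0.44 under the corrections for base composition. The libraries of the 2 groups did not overlap for any of the 10 pairs. Other pairs of genes were not counted, and single genes did not overlap for 85.1 percent of all genes. The same corrections, the one for coding sequence and 3′ UTR given second, left POLA1 to POLA2 at 1.31 and 0.63, RFC1 to RFC4 at 1.34 and 1.01 and MCM10 to MCM2 at 0.78 and 0.59. CDT1 to GMNN came to -0.11 under the GC content and length correction and to 0.042 under that for coding sequence and 3′ UTR, and its direction changed with the treatment of base composition. The direction also changed for ORC1 to ORC2 (0.47 and 0.58), for POLE to POLE2 under the second correction (-0.059 and 0.35), for RRM2 to RRM1 under the second (-0.45 and 0.41) and for DBF4 to CDC7 under the second (0.53 and -0.23).

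**Figure D4:**
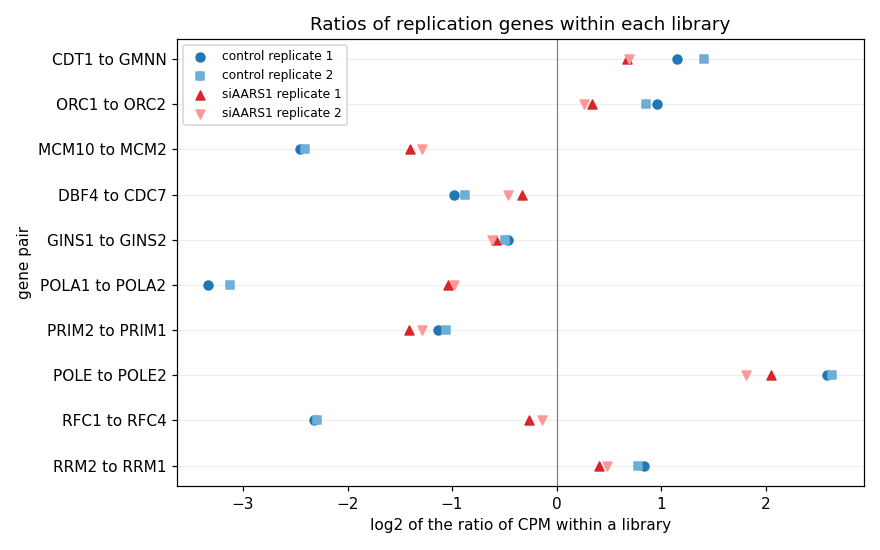
Log2 of the ratio of CPM of 2 genes within each library, 1 row per pair and 1 point per library (blue, 2 control; red, 2 siAARS1). For POLA1 to POLA2 and RFC1 to RFC4 the red points lie more than 2 log2 units to the right of the blue points, and for CDT1 to GMNN they lie to the left, at 0.68 and 0.69 against 1.15 and 1.42.

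Genes that act with the 48 were counted in 5 further lists with 57 genes, all of them tested. Of these 57, 35 were higher, 7 lower and 15 did not pass, with a median log2 fold change of 0.17. Under every scaling 22 were higher and 7 lower, a count not made over all genes. The 73.7% that passed stand near the 70.7 percent of all genes, of which 32.6 percent were higher and 38.0 percent lower, and under median scaling 22 of the 57 were higher and 23 lower. Of 23 other initiation and fork factors 14 were higher and 4 lower. TOPBP1, which helps to activate the helicase, rose from 12.9 and 13.7 CPM to 83.3 and 80.3 CPM (log2 fold change 2.53), WDHD1, which ties polymerase alpha to the fork, rose by 2.48, and ATAD5, which unloads PCNA, rose by 2.18. All 3 have transcripts with a GC content of 41.3% or less. They were called higher under the GC content and length correction, at 1.64, 1.20 and 0.87. Once coding sequence and 3′ UTR were corrected for they stood at 0.69, 0.58 and -0.086, where ATAD5 did not pass. Of 7 other nucleotide supply genes 4 were higher and 1 lower, with RRM2B, the p53-regulated small subunit of ribonucleotide reductase, at 1.39, thymidine kinase TK1 at -0.28 and deoxycytidine kinase DCK at 0.24. TK1 and DCK turned to 0.068 and -0.51 when GC content and length were corrected for, and RRM2B came to 0.20 and no longer passed. RRM2B was called higher, at 0.48, under the correction for coding sequence and 3′ UTR. Of 13 E2F and RB family genes 7 were higher and 0 lower by limma, also at unadjusted p under 0.05, and 0 were lower by edgeR or DESeq2. Under median scaling limma called 5 of them lower, E2F1 at -0.23, E2F2 at -0.30, E2F4 at -0.21, TFDP1 at -0.12 and TFDP2 at -0.25, and under quantile normalization 2, E2F2 and TFDP2. The corrections for base composition had E2F1 called higher, at 0.36 and 0.39, and likewise E2F2, at 0.22 and 0.30. The pocket proteins RBL1 and RB1 rose by 1.60 and 1.47 and the repressor E2F8 by 0.91, whereas E2F1 was at 62.9 and 68.7 CPM against 63.5 and 68.0 CPM with overlapping groups. Under the GC content and length correction RBL1, RB1 and E2F8 were called higher, at 0.56, 0.25 and 0.80. Correction for coding sequence and 3′ UTR turned RB1 to -0.46 and put RBL1 at 0.093, where it no longer passed. E2F8 was still called higher there, at 0.51.

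Of 8 genes that handle chromatin at the fork 5 were higher and 1 lower. SUPT16H, a subunit of the histone chaperone FACT, rose from 192 and 193 CPM to 441 and 437 CPM (log2 fold change 1.19), the chaperone gene ASF1A rose by 0.62 and UHRF1, which guides maintenance of DNA methylation, was higher by 0.25. ASF1A turned to -0.28 under the GC content and length correction and did not pass at 0.13 under that for coding sequence and 3′ UTR. UHRF1, which had no transcript value for either correction, stood at 0.017 under median scaling and no longer passed. Of 6 genes that control licensing through protein degradation 5 were higher and 1 lower. CUL4B, a scaffold of the ubiquitin ligase that acts on CDT1, rose from 20.3 and 19.4 CPM to 60.7 and 71.0 CPM (log2 fold change 1.68), its substrate receptor DTL rose by 0.55, and FBXO5, an inhibitor of the anaphase-promoting complex, rose by 0.72. Under the GC content and length correction CUL4B, DTL and FBXO5 stood at 0.97, -0.14 and 0.094.

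**Figure D5:**
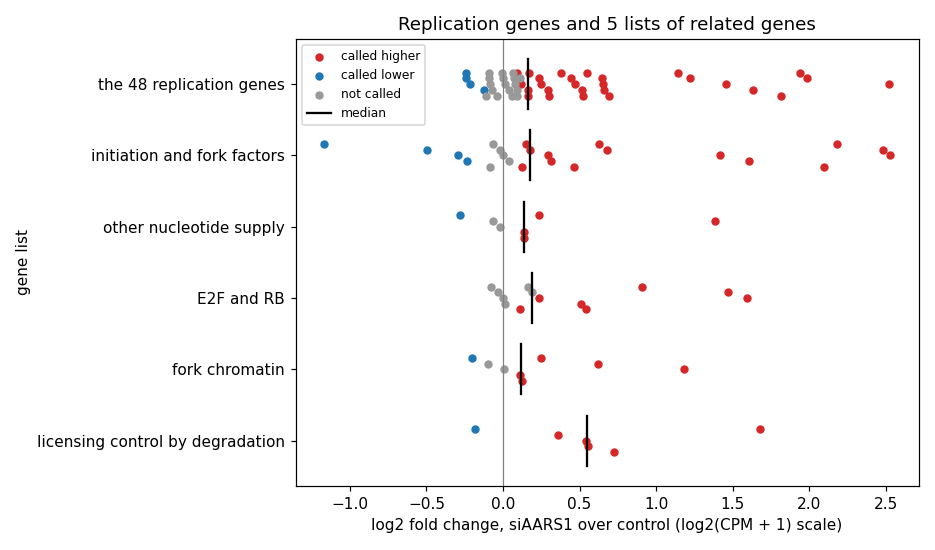
Log2 fold change (siAARS1 over control) of the 48 replication genes and of the genes in 5 related lists, 1 point per gene (red, called higher; blue, called lower; grey, not called by limma) with the median of each list as a black bar. The medians lie to the right of 0 in every row as deposited, and below 0 under median scaling for the 48 genes (0.16 to -0.065) and 4 of the 5 lists. The exception is licensing control by degradation, at 0.55 as deposited, 0.32 under median scaling and 0.060 under the GC content and length correction.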

How the data were processed

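The authors deposited 1 table of CPM values for 4 libraries, with genes in rows and no columns of comparisons. RSEM 1.3.3 and the build hg38 are named in the submitters' processing notes, without a role, and the scaling between libraries, the annotation and the use of strand are not given in the sources used here. The deposited CPM sum to 981442 to 992569 over the listed genes. Divided by the CPM of 1 read, 100% of values in each library came out whole (within 0.05 reads), so reads were recovered. Replicates of a group differed beyond sampling noise (chi-square per gene of 3.63 and 3.62), and all 4 libraries were kept.

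Genes averaging 1 CPM or more in either group were tested with limma 3.58.1 (R 4.3.3, trend) on log2(CPM + 1) with a pseudocount of 1, which understates changes of low genes. P-values were adjusted over all genes tested by the Benjamini-Hochberg method with a threshold of 0.05. Alternatives were a pseudocount of 0.1, no filter, median scaling, quantile normalization, a replicate block, leaving out each library, a threshold of 0.01, and edgeR 4.0.16 and DESeq2 1.42.0 on recovered reads, which called 9806 and 8355 genes. Values were also corrected by smooth trends (mgcv 1.9.3) on GC content and length, of the transcript or of coding sequence and 3′ UTR, from GENCODE release 29 (1 transcript per gene, principal and longest first). Ratios were compared with an exact permutation test. Only the limma fit without correction was tested on simulated data. Few genes were changed there and no trend on GC content was built in, unlike in these data.

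Members and gene lists were chosen with earlier results of these data known. Every member is accounted for. Library values are given for the highest and lowest member of each role, the paired genes and those changed at least 2-fold, and up to 3 called genes are named from each further list. E2F1 and other genes given beyond this rule were chosen after their values were seen. Promoter windows were taken for 42 of 48 members, and GINS4, MCM4, MCM5, POLD3, RPA2 and RPA3 had none in the table used. Intervals cover the spread between these libraries only.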

Additional observations from a re-analysis of the deposited data

How the results depend on the processing

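Calls and their direction held for all 48 members with a pseudocount of 0.1 and without the filter, for 47 with the replicate block and for 43 to 45 when 1 library was left out, where MCM5, CDC45, POLD1 and POLE, near 0 and not called, could change sign. Under median scaling 14 members turned below 0: MCM2 -0.15, MCM3 -0.16, MCM4 -0.056, MCM5 -0.22, MCM7 -0.16, ORC1 -0.11, ORC6 -0.14, CDC6 -0.066, GINS1 -0.18, GINS2 -0.064, GINS3 -0.13, FEN1 -0.11, RPA1 -0.13 and TYMS -0.17. With the GC content and length correction, and the same values with the replicate block added to it, these log2 fold changes changed sign: ORC2 -0.20, ORC4 -0.078, CDC6 -0.067, CDT1 0.17, CDC45 0.20, GINS1 -0.56, RFC2 0.20, RFC3 -0.19, POLA2 0.10, PRIM2 -0.13, POLD1 0.34, POLD2 0.088, POLE 0.29, LIG1 0.26, RRM2 -0.20, TK1 0.068, DCK -0.51, E2F1 0.36, E2F2 0.22, ASF1A -0.28 and DTL -0.14. Under the correction for coding sequence and 3′ UTR these did: ORC2 -0.42, ORC4 -0.12, ORC5 -0.30, CDC6 -0.19, CDT1 0.16, CDC45 0.12, GINS1 -0.016, GINS4 0.098, RFC2 0.19, POLA2 0.019, PRIM1 -0.085, PRIM2 -0.29, POLD1 0.34, POLD2 0.068, POLE 0.23, POLE2 -0.11, LIG1 0.23, RPA2 0.063, RRM1 -0.19, ATAD5 -0.086, TK1 0.10, DCK -0.45, E2F1 0.39, E2F2 0.30, RB1 -0.46 and DTL -0.074. The cause was not tested for any of these.

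The count of members called lower was 4 as deposited, 22 with median scaling, 9 with quantile normalization and 2 with DESeq2, and 2 to 4 when 1 library was left out (2 without control replicate 2, where CDT1 and POLA2 no longer passed). The median log2 fold change of the members was 0.16, and -0.065 with median scaling, 0.11 with quantile normalization, 0.20 with edgeR, 0.22 with DESeq2 and 0.23 once GC content and length were corrected for, with or without the replicate block. Correction for GC content and length put the log2 ratio of CDT1 to GMNN at -0.11, ORC1 to ORC2 at 0.47, MCM10 to MCM2 at 0.78, GINS1 to GINS2 at -0.86, POLA1 to POLA2 at 1.31, PRIM2 to PRIM1 at -0.38, POLE to POLE2 at -0.059, RFC1 to RFC4 at 1.34 and RRM2 to RRM1 at -0.45. The coding sequence and 3′ UTR correction put CDT1 to GMNN at 0.042, ORC1 to ORC2 at 0.58, MCM10 to MCM2 at 0.59, DBF4 to CDC7 at -0.23, GINS1 to GINS2 at -0.44, POLA1 to POLA2 at 0.63, POLE to POLE2 at 0.35, RFC1 to RFC4 at 1.01 and RRM2 to RRM1 at 0.41.

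Replicate numbers are shared between groups, and same-numbered libraries have consecutive identifiers, but no label says that the numbers pair the libraries. Across genes, libraries with the same number deviated from their group means with a correlation of 0.118, and with the replicate block 32 members passed (28 higher and 4 lower), ORC1 being the addition, and 10389 of all genes. With 2 libraries a group, small changes such as those of RPA1 and POLA2 lie at the limit of what these data resolve, while every member held at least 214 reads in each library.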
